A study of Oncorhynchus mykiss with 16 samples.

Results

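Adipocyte maturation was followed here as the difference between day 21 and day 15 of rainbow trout (Oncorhynchus mykiss) adipocyte precursor cultures. The comparison takes the arrays titled Day 21 and Day 15 from cultures 4, 8, 9 and 10, which are 8 of the 16 arrays of the series, and pairs them by culture number, 4 against 4. The other 8 arrays are of days 3 and 8 of the same cultures and enter here as reference points. Precursor cells of each culture were isolated with collagenase from the visceral fat of a pool of several trout and grown in a serum-containing medium until confluence at day 8. They were then held in a differentiation medium with insulin, the phosphodiesterase inhibitor IBMX, the glucocorticoid dexamethasone and a lipid mixture, so that the cells of day 15 and of day 21 share the same medium and differ in the time spent in it. The study's methods call the cells of day 15 committed preadipocytes and those of day 21 mature adipocytes. A culture is a pool of animals and each day of it is a separate flask, so the 4 differences are biological replicates of pools and not of single fish. A lower share of a cell type in a flask and less RNA of a gene per cell cannot be told apart in such bulk RNA.

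In vertebrates the late stage of adipogenesis is driven by nuclear receptors, with PPARg, bound to its partner RXR, at the centre of the programme in mammals. Under it the cells take up glucose and fatty acids, synthesise and esterify lipids and fill lipid droplets. Retinoic acid, which acts through the RAR receptors, and Wnt signals are known in mammals as brakes on the commitment of precursors, autophagy remodels the cytoplasm while the droplets grow, and antioxidant enzymes deal with the peroxides that a lipid-rich cell forms.

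RNA was labelled with Cy3 and hybridised to Agilent oligonucleotide arrays with 60195 probes that are not controls. On the 8 arrays of days 15 and 21 the 75th percentile of the background-corrected signal lay between 499 and 776 units, and the scanner software marked 67.0% to 76.3% of the spots as well above background, which is called detected below. Levels are given below as log2 of the signal relative to that percentile of the same array, so that a difference of 1 is a 2-fold difference. A probe was tested when it had a value on all 8 arrays and was detected in all 4 cultures on day 15, on day 21 or on both, which left 41023 probes, and 37992 of these were detected on all 8 arrays. Day 15 brought in 2599 probes that were missed in at least 1 culture on day 21, and day 21 brought in 432 in the other direction. Most probes carry the identifier of a contig or a sequence read and no gene name. Of the adipocyte markers looked for, PPARg is the only clear name in the files, and its probe was detected on none of the 8 arrays. The names of mature and committed cells could therefore not be checked here by markers with a readable name. Whether probes under sequence identifiers read such markers was not examined. The paper itself followed PLIN2, ACSL1 and PEPCK by qPCR and Western blot, GPDH by qPCR and PPARg as protein. No readable name is that of a macrophage, endothelial, erythrocyte or fibroblast marker. The muscle regulators myod1 and myogenine were detected on all 8 arrays, and Pax7 and mrf4 on none.

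No probe met the criteria of an adjusted p below 0.02 and a ratio above 3 between day 21 and day 15 (0 of 41023, 0.0%), and the lowest adjusted p was 0.208 (limma with culture as a block, Benjamini-Hochberg adjustment). At an unadjusted p below 0.05 there were 4821 probes (11.8% of those tested), 1756 higher at day 21 (4.28%) and 3065 lower (7.47%). The shares in this split depended on how the arrays were scaled, and among the alternatives only normexp background correction reversed its direction. Higher probes made up 36.4% of it on the 75th percentile, 46.8% on the authors' common median and 56.4% after normexp background correction, while the median difference of all tested probes moved from -0.03 to 0.004 and 0.05. Mean ratios above 3 were seen for 69 probes higher and 40 lower at day 21. The samples of both days did not overlap for 955 probes (2.33%), of which 345 were higher at day 21 (0.841%) and 610 lower (1.49%). At the level of detection, 2 probes were detected in every culture on day 21 and in none on day 15, and 9 probes the reverse.

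The step from day 15 to day 21 was smaller in every culture than each step before it. The root mean square of the log2 differences over the probes was 0.447, 0.466, 0.487 and 0.576 in cultures 4, 8, 9 and 10, or 0.494 ± 0.057 (SD, n = 4). From day 8 to day 15 it was 0.677 ± 0.049, and from day 3 to day 8 it was 0.865 ± 0.043. Every step was taken over probes chosen by detection at day 15 or day 21, with no such rule for days 3 and 8. Whether this enlarged the earlier steps was not tested. Every culture moved more in its first step than in its last, by 0.371 ± 0.018 on average (4 of 4 cultures, exact two-sided sign-flip permutation test, p = 0.125, the smallest p that 4 pairs can give). Culture 10 had the largest last step, with 1177 probes higher and 1908 lower by more than 2-fold, and culture 4 the smallest, with 511 higher and 888 lower. The differences were wider among dim probes. When the probes were put in 4 classes of equal size by brightness, the SD of the differences ran from 0.565 to 0.734 across cultures in the dimmest class and from 0.341 to 0.412 in the brightest.

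The cultures also resembled each other less in this step. Across probes, which are not independent replicates, the day 3 to day 8 differences of 2 cultures correlated with r between 0.377 and 0.798 over the 6 pairs. For day 15 to day 21 the range was 0.016 to 0.311. The low end was held by culture 4, whose pairs gave 0.079 with culture 8, 0.120 with culture 9 and 0.016 with culture 10, against 0.241 to 0.311 among the other cultures. The arrays lay on 2 slides, with day 15 on slide 2 and day 21 on slide 1 for cultures 4 and 9 and the reverse for cultures 8 and 10. For this step, pairs with the same placement gave 0.120 and 0.311. Day 3 lay on slide 1 and day 8 on slide 2 for cultures 8, 9 and 10, and the reverse held for culture 4. From day 3 to day 8 the pairs of cultures 8, 9 and 10 gave 0.377 to 0.798 and those with culture 4 gave 0.396 to 0.586. The slide layout thus differed between the compared steps, and its part in the correlations was not tested. With slide added to culture and day, no probe had an adjusted p below 0.05 for slide in limma, and the number of probes at an unadjusted p below 0.05 for day was 5031. The lowest adjusted p for day in that limma fit was 0.223. With so few arrays the count of 0 for slide cannot show that slide had no effect.

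**Figure D1:**
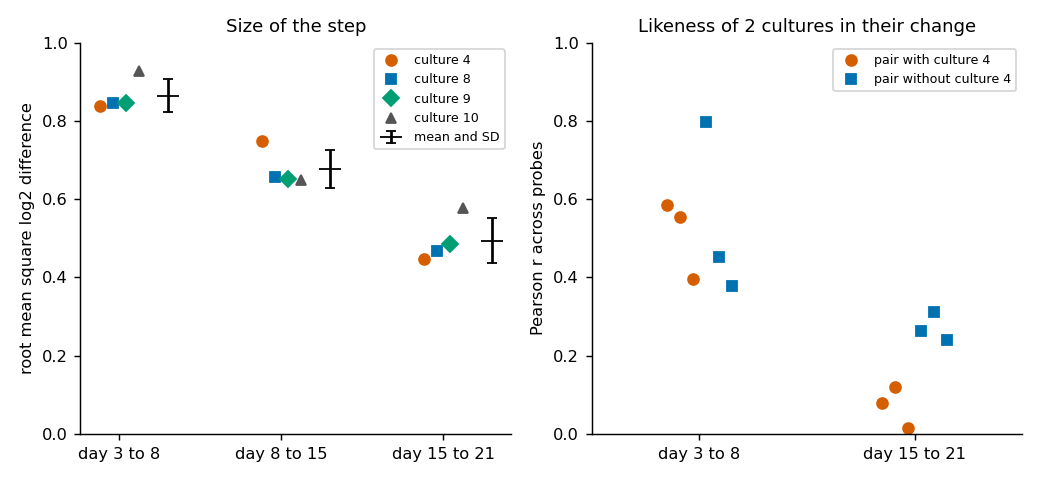
Left, root mean square of the log2 differences over the tested probes for each step and culture, with the mean and SD of the 4 cultures beside the points. Right, Pearson r across probes between the differences of each pair of cultures, where the pairs with culture 4 lie between 0.016 and 0.120 for day 15 to day 21 and the other pairs between 0.241 and 0.311.

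Few probes differed by more than 2-fold in the same direction in every culture. There were 25 (0.0609% of the probes tested), 7 of them higher at day 21 (0.0171%) and 18 lower (0.0439%). After normexp background correction the number was 6 in place of 25. Of the 7 and 18, 4 and 11 were detected on all 8 arrays. Only 51 of the 41023 tested probes have a readable name, and these 25 are not among them. They were found from days 15 and 21, and their levels at days 3 and 8 had no part in it. The median level of the 18 lower probes was 3.21, 1.20, -0.73 and -2.36 on days 3, 8, 15 and 21, lower on each successive day. The 7 higher probes had medians of -4.57, -3.79, -3.76 and -1.57 on those days. Levels of the 18 lower probes ran from -6.525 to 8.923 at day 3 and from -2.997 to 7.108 at day 8. Not all of the 18 thus fell between days 3 and 8. Within both slides 22 of these 25 probes kept their direction. The same 8 arrays had chosen the probes, so this count is no separate support.

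The lower probe with the identifier TC97868 shows the same order. At day 15 it read 3.92, 1.83, 0.55 and 0.08 in cultures 4, 8, 9 and 10, and at day 21 it read 2.74, -0.22, -1.09 and -1.97 in the same order. It was lower at day 21 in every culture, although the days overlap because culture 4 stands above the others. The difference was -1.73 (standard error 0.18, adjusted p = 0.208 in limma). At day 3 the probe had been at 7.60 ± 0.69 (SD, n = 4) and at day 8 at 3.96 ± 1.61. The other lower probe, FP324241.s.om.10, differed by -1.33, -1.83, -1.77 and -1.35 in the 4 cultures, with a mean of -1.57 (standard error 0.15, adjusted p = 0.208 in limma).

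Of the higher probes, TC109498 read -2.83, -4.17, -2.88 and -3.17 at day 15 in cultures 4, 8, 9 and 10 and -1.29, -2.96, -0.73 and -1.31 at day 21. Culture 8 was the lowest on both days, and its value at day 21 lies among those of day 15. The difference was 1.69 (standard error 0.18, adjusted p = 0.208 in limma). Its level at day 21, -1.57 ± 0.96 (SD, n = 4), was near the -1.12 ± 0.61 of day 3, with -3.28 ± 0.94 at day 8 and -3.26 ± 0.63 at day 15 between them. FYV3OTN02HDVBD.s.om.10 differed by 2.51, 1.98, 1.12 and 1.17 (mean 1.69, standard error 0.25, adjusted p = 0.208 in limma), and culture 10 was far below the others on both days, at -4.12 and -2.95. These 4 probes are those whose smallest within-culture difference was largest among the probes detected on all 8 arrays.

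**Figure D2:**
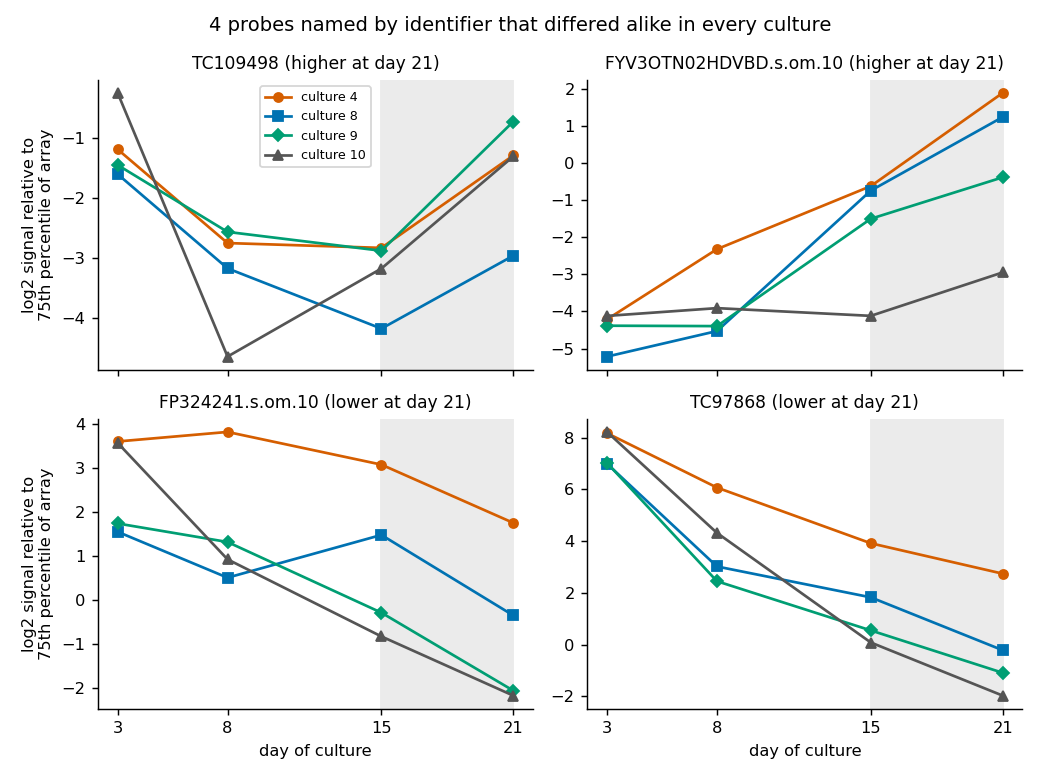
Log2 signal relative to the 75th percentile of the array at days 3, 8, 15 and 21 for the 2 higher and 2 lower probes that lead by their smallest within-culture difference, with a line for each culture and the compared days shaded. All 4 lines of each panel run in the same direction between days 15 and 21, and TC97868 averages 7.60 at day 3.

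Among the probes, 67 carry a readable gene name or a RefSeq accession, and 51 of them were tested. None passed. Of the 51, 33 had a positive and 18 a negative mean difference, with 29 to 36 positive under the other scalings and normexp background correction. Among them 6 had an unadjusted p below 0.05, which is 11.8% and the same share as among all probes tested. The sign was the same in all 4 cultures for 9 positive and 4 negative probes, where 8.08% and 12.2% of all tested probes, 20.3% together, had such signs. No named probe had days that did not overlap, where 2.33% of all tested probes had such days, so that few would be looked for among 51. The median difference of the 51 was 0.07, against -0.03 for all tested probes. The values below come from probes whose names are in places cut short, and where a gene of trout exists in several copies a probe need not read all of them.

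**Figure D3:**
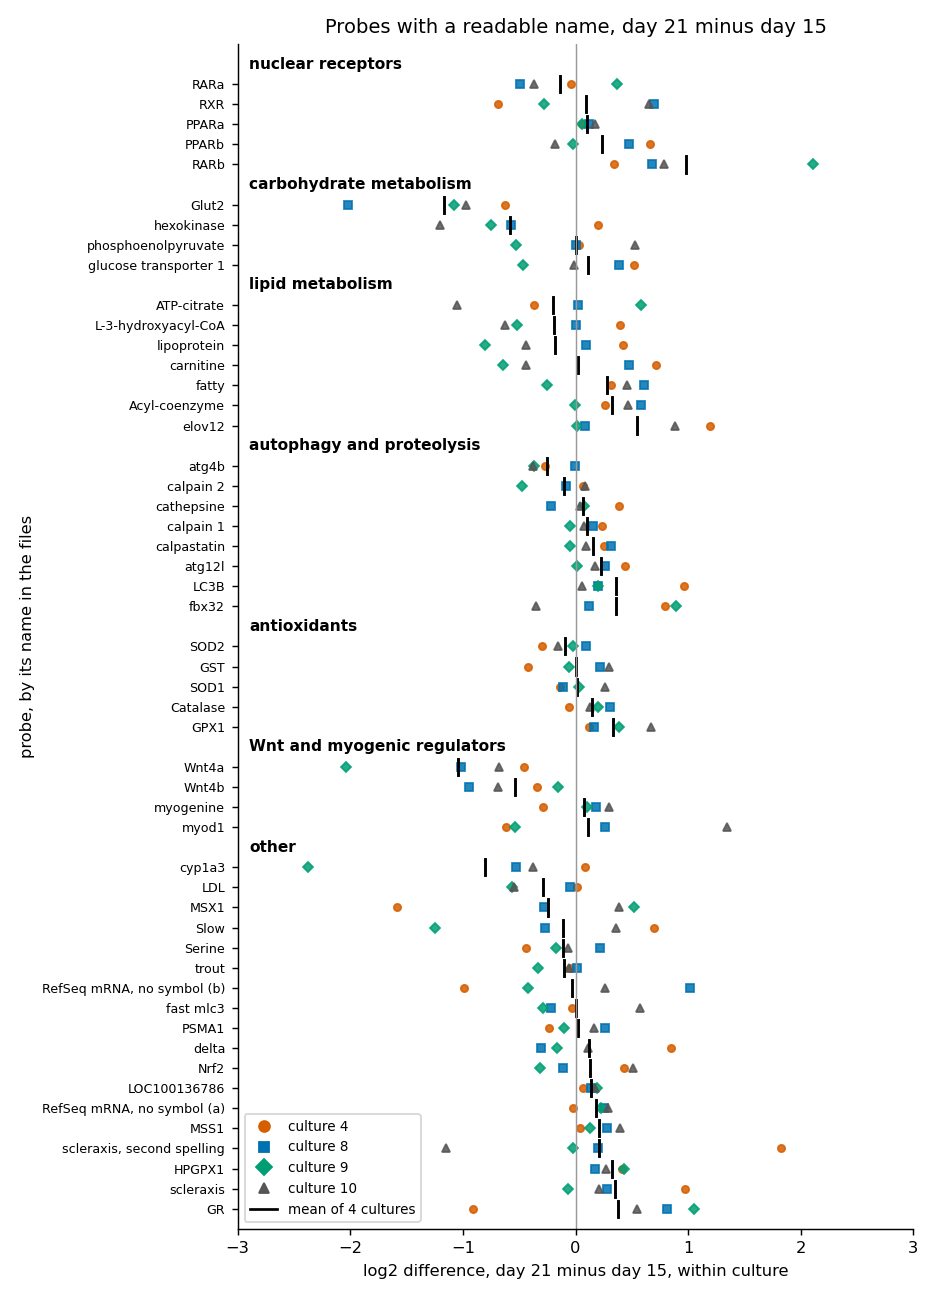
Log2 difference between day 21 and day 15 within each culture for the 51 tested probes with a readable name, ordered by mean within each group, with a symbol for each culture and a bar for the mean. The bars run from -1.17 for Glut2 to 0.98 for RARb, and the cultures of most probes lie on both sides of 0.

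Of the 6 probes of nuclear receptors, 5 were tested, 4 with a positive difference and none past the test. The probe named RARb, a retinoic acid receptor, read -4.02, -4.85, -3.87 and -4.60 at day 15 in cultures 4, 8, 9 and 10. At day 21 it read -3.68, -4.18, -1.77 and -3.82. It was higher at day 21 in every culture, with culture 9 far above the others, and the days overlap. The difference was 0.98 (standard error 0.29, adjusted p = 0.317 in limma). Within a slide, where the days come from different cultures, it was 2.00 on slide 1 and -0.05 on slide 2. PPARb, a fatty acid sensor expressed in many tissues, was at 0.70 ± 0.43 (SD, n = 4) at day 15 and 0.94 ± 0.64 at day 21, with differences of 0.66, 0.48, -0.02 and -0.18 in the 4 cultures that have no common sign (mean 0.23, standard error 0.18, adjusted p = 0.653 in limma). PPARa, which directs fatty acid oxidation, was higher by 0.06, 0.12, 0.06 and 0.17, a positive sign in each culture at a mean of 0.10 (standard error 0.12, adjusted p = 0.773 in limma). RXR, the shared partner of these receptors, lay at 0.09, with differences from -0.69 to 0.69, positive in 2 and negative in 2 cultures. RARa lay at -0.14.

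Carbohydrate metabolism held the named probe with the largest difference on the 75th percentile scale. The probe of the glucose transporter Glut2, known in mammals from liver and pancreatic beta cells, read 0.17, -2.23, -2.75 and -2.78 at day 15 in cultures 4, 8, 9 and 10 and -0.46, -4.25, -3.83 and -3.75 at day 21. It was lower at day 21 in each culture, and culture 4 was above the other cultures on both days. The difference was -1.17 (standard error 0.23, adjusted p = 0.245 in limma), and between the different cultures of slide 1 and of slide 2 it was 0.36 and -2.71. After normexp background correction it was -0.47. In a limma fit with no replicate block the adjusted p was 1.0, as for every tested probe in that fit, so it is not particular to Glut2. Over the alternatives the adjusted p of Glut2 ran from 0.141 to 1.0.

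Hexokinase, which phosphorylates glucose as it enters the cell, read -1.71, -0.41, -0.78 and -1.16 at day 15 and -1.51, -0.99, -1.53 and -2.37 at day 21. It was lower at day 21 in 3 of 4 cultures and higher in culture 4, with a mean difference of -0.58 (standard error 0.23, adjusted p = 0.409 in limma). From day 3 to day 8 the same probe had gone from -3.01 ± 0.32 (SD, n = 4) to -1.36 ± 0.26. The other tested members, glucose transporter 1, which carries glucose into most cells, and the probe cut short as phosphoenolpyruvate, differed by 0.11 and 0.01. The probes of glucokinase and glucose-6-phosphatase, which are enzymes of the liver in mammals, were detected on no array of the compared days.

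**Figure D4:**
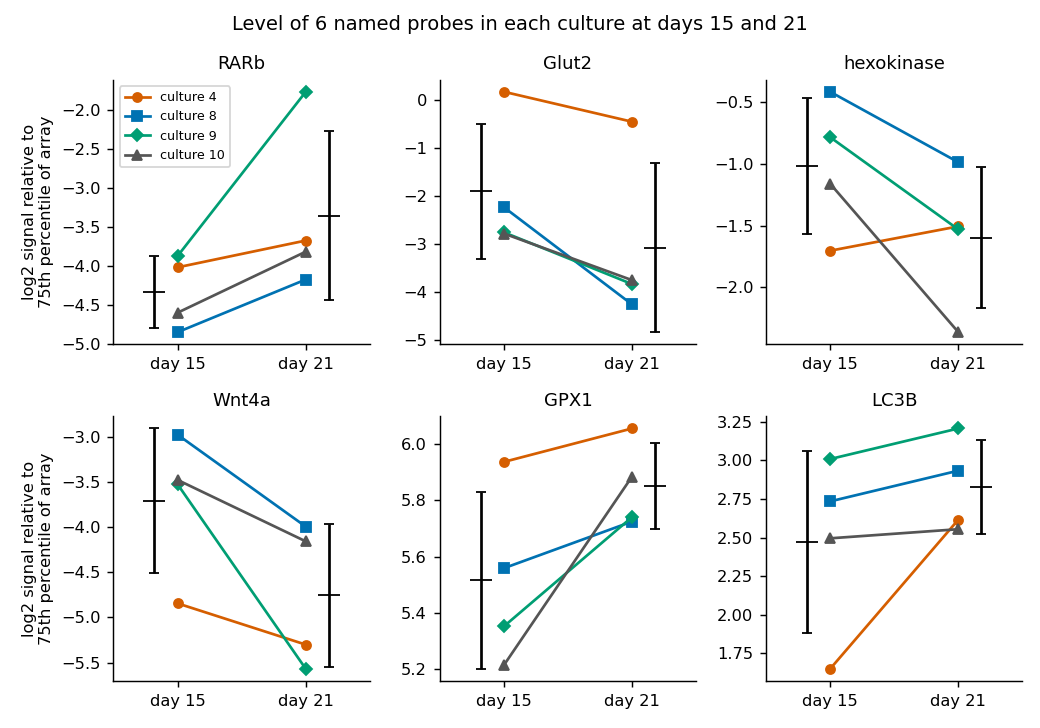
Log2 signal relative to the 75th percentile of the array at day 15 and day 21 for 6 named probes, with a line for each culture and the mean and SD of the 4 cultures beside them. RARb, GPX1 and LC3B are higher and Glut2 and Wnt4a lower at day 21 in 4 of 4 cultures, hexokinase is lower in 3 of 4, and the days overlap in every panel.

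Of 8 probes of lipid metabolism 7 were tested, 4 with a positive and 3 with a negative difference, and the median was 0.03. The probe elov12, by its name an elongase of fatty acid chains, had the largest. It read -1.63, -3.40, -3.30 and -4.44 at day 15 and -0.43, -3.32, -3.29 and -3.56 at day 21. Culture 4 was the highest on both days, with differences of 1.20 in culture 4 and 0.89 in culture 10, while cultures 8 and 9 gave 0.08 and 0.01 (mean 0.54, standard error 0.23, adjusted p = 0.43 in limma). The probe cut short as Acyl-coenzyme differed by 0.33 (standard error 0.14, adjusted p = 0.443 in limma) and was positive in 3 of 4 cultures. L-3-hydroxyacyl-CoA, by its name a probe for an enzyme of beta-oxidation, was at 4.09 ± 0.31 (SD, n = 4) at day 15 and 3.91 ± 0.40 at day 21, positive in 2 and negative in 2 cultures. The other 4, named ATP-citrate, fatty, carnitine and lipoprotein, lay between -0.20 and 0.28. The probe elovl5b was detected on 1 array of day 21 and none of day 15 and was not tested.

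All 8 probes of autophagy and proteolysis were tested, and 6 had a positive difference, none past the test. LC3B, which is bound to the membrane of the autophagosome, read 1.65, 2.73, 3.01 and 2.50 at day 15 and 2.62, 2.93, 3.21 and 2.55 at day 21. Culture 4 was the lowest at day 15 and was higher by 0.97 at day 21, against 0.06 to 0.20 in the others (mean 0.36, standard error 0.18, adjusted p = 0.495 in limma). The probe atg12l, named after a ubiquitin-like protein of the same machinery, was higher by 0.44, 0.27, 0.02 and 0.17 (mean 0.22, adjusted p = 0.542). The probe of atg4b, a protease that processes LC3, differed by -0.27, -0.001, -0.37 and -0.38 in cultures 4, 8, 9 and 10. Its mean difference was -0.26 (standard error 0.13, adjusted p = 0.494 in limma), but 0.12 after normexp background correction. It was detected on 3 of 4 arrays of day 21. The proteases calpain 1, calpain 2 and cathepsine, the calpain inhibitor calpastatin and fbx32, a muscle ubiquitin ligase, lay between -0.10 and 0.36.

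All 5 antioxidant probes were detected on the 8 arrays, 4 with a positive difference, a number that ran from 2 to 4 over the other scalings. GPX1, a glutathione peroxidase that reduces hydroperoxides, read 5.94, 5.56, 5.35 and 5.21 at day 15 and 6.06, 5.73, 5.74 and 5.89 at day 21. It was higher in every culture, and the spread of the cultures was 0.32 (SD, n = 4) at day 15 and 0.15 at day 21. The difference was 0.34 (standard error 0.14, adjusted p = 0.432 in limma). A probe named HPGPX1, a name that the files do not spell out, was higher by 0.41, 0.17, 0.44 and 0.28 (mean 0.32, standard error 0.12, adjusted p = 0.394 in limma), and it is counted among the other names. The superoxide dismutases SOD1 and SOD2, Catalase and GST lay between -0.10 and 0.14.

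Both Wnt probes were lower at day 21 in every culture, although after normexp correction Wnt4a stood at -0.28 and Wnt4b at 0.08. Wnt4a, a secreted signalling protein, read -4.84, -2.98, -3.53 and -3.48 at day 15 and -5.30, -4.00, -5.57 and -4.16 at day 21, where it was detected on 3 of 4 arrays. Culture 9 differed the most, and the days overlap through culture 4, the lowest at day 15. The difference was -1.05 (standard error 0.26, adjusted p = 0.284 in limma), and -2.20 and 0.11 within slides 1 and 2. Wnt4b differed by -0.35, -0.95, -0.16 and -0.69 (mean -0.53, standard error 0.17, adjusted p = 0.329 in limma) and was detected on 2 of 4 arrays of day 21. Wnt4a had been at -4.78 ± 0.39 (SD, n = 4) at day 3 and -1.75 ± 0.82 at day 8, against -4.76 ± 0.79 at day 21. The muscle regulators myod1 and myogenine lay at 0.12 and 0.07. The differences of myod1 ran from -0.62 in culture 4 to 1.35 in culture 10, positive in 2 and negative in 2 cultures.

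Of the 29 other names 18 were tested, 11 with a positive and 7 with a negative difference. The largest was that of cyp1a3, a cytochrome P450 known for its induction by aryl hydrocarbons, which read 2.55, 3.08, 2.33 and 2.60 at day 15 and 2.63, 2.56, -0.04 and 2.22 at day 21. The low value of culture 9 at day 21 makes up most of the mean difference of -0.80 (standard error 0.38, adjusted p = 0.475 in limma), and culture 4 gave 0.08. Apart from HPGPX1, the other 16 lay between -0.29 and 0.38. They include the transcription factor Nrf2 and the probes named LDL and scleraxis. The probes named fast mlc1, Fast myosin, slow, skelemin, myf5 and Sox5 and those of the transporters rhbg2a and nhe3 were among those not tested, while fast mlc3 and Slow were tested.

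The number of probes that met the criteria depended on culture 4. Without it, on 3 against 3, 45 probes were called (0.11% of those tested), 40 higher at day 21 (0.0975%) and 5 lower (0.0122%), with a lowest adjusted p of 0.0126, and 135 had an adjusted p below 0.05 in limma. Without culture 8, 9 or 10 no probe was called, and the lowest adjusted p values were 0.294, 0.535 and 0.33. The probes with more than a 3-fold difference in each of the remaining cultures numbered 77 higher and 20 lower without culture 4, 4 and 1 without culture 8, 2 and 2 without culture 9, and 5 and 5 without culture 10. None of the 45 is among the 51 probes with a readable name, out of 41023 tested. Of the 45, 36 were detected on all 8 arrays. Within both slides 44 kept their direction. That count reuses the values of cultures 8, 9 and 10 that chose the probes, so it is no separate support. In the fit on all 4 cultures their adjusted p lay between 0.208 and 0.45.

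The differences of culture 4 did not enter the fit that chose these probes, although culture 4 did enter the detection filter. There the 40 higher probes had a median difference of -0.13, with 29 negative and 11 positive values between -1.67 and 0.36. In cultures 8, 9 and 10, which chose them, the medians were 2.36, 2.51 and 2.40. No probe was called with culture 4 included, so a weaker difference in culture 4 is in part built into the choice and is no separate result. The 5 lower probes were negative in culture 4 as well, with a median of -0.58 against -2.03, -2.09 and -2.13. The median level of the 40 probes in culture 4 was -0.78, 1.10, -1.15 and -1.42 on days 3, 8, 15 and 21.

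Culture 8 gave medians of -1.98, 0.23, -3.44 and -1.16 on the 4 days, and culture 9 gave -1.69, 0.35, -2.23 and 0.56. In cultures 4, 8 and 9 the 40 probes were thus high at day 8 and low at day 15, and in cultures 8 and 9 they were higher again at day 21. In culture 10 the order differed, with 1.19, -1.15, -2.22 and 0.45 on the same days. Days 3 and 8 were not used in the choice of these probes, while the contrast between days 15 and 21 was.

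**Figure D5:**
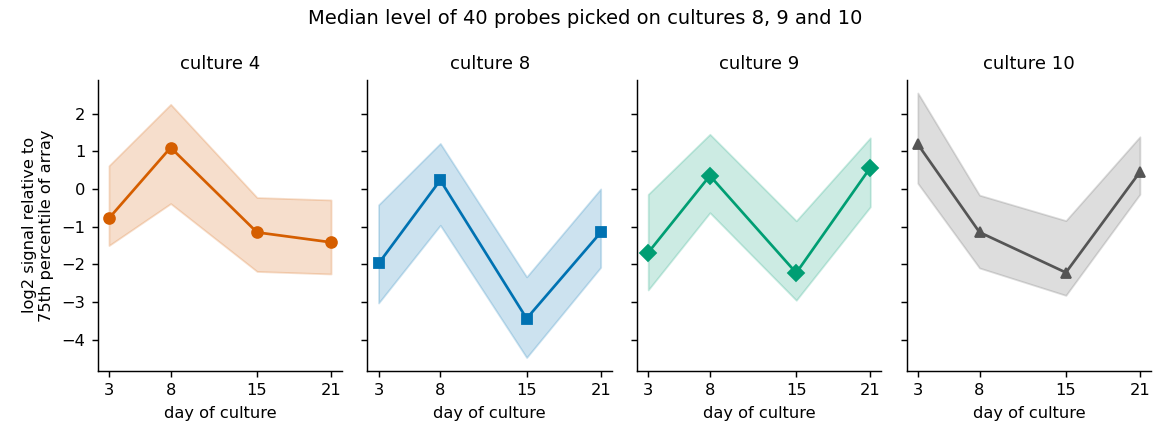
Median log2 signal relative to the 75th percentile of the array of the 40 probes called higher at day 21 without culture 4, by day and culture, with the band from the lower to the upper quartile of the probes. Between days 15 and 21 the median goes from -1.15 to -1.42 in culture 4 and from -2.23 to 0.56 in culture 9.

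The probes that had moved when the cells grew to confluence were also followed into the last step, with no array shared between the 2 steps. More than 3-fold higher at day 8 than at day 3 in all 4 cultures were 293 of the tested probes. Their median level was -3.01, -0.22, -0.04 and -0.29 on days 3, 8, 15 and 21. Their median difference between days 15 and 21 was -0.07, with 0.22, -0.09, -0.31 and -0.15 in cultures 4, 8, 9 and 10, so that culture 4 differed from the others in sign. At an unadjusted p below 0.05, 25 of them were higher at day 21 (8.53%, against 4.28% of all tested) and 34 lower (11.6%, against 7.47%). In all 4 cultures 23 were higher (7.85%, against 8.08% of all tested) and 30 lower (10.2%, against 12.2%).

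The reverse list held 91 probes that were lower at day 8 than at day 3 by the same rule, with median levels of 2.09, -1.02, -1.49 and -1.35 on days 3, 8, 15 and 21. Their median difference between days 15 and 21 was -0.17, and it was negative in each culture at -0.18, -0.32, -0.04 and -0.25, so that the median of the differences and the step between the median levels have opposite signs. Of these probes 27 were lower in all 4 cultures (29.7%, against 12.2% of all tested) and 5 higher in all 4 (5.49%, against 8.08%). At an unadjusted p below 0.05, 27 were lower (29.7%) and 10 higher (11.0%), and none of either list met the criteria. When dim probes were kept in, the median of the reverse list was 0.06.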

How the data were processed

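The authors extracted a background-corrected intensity per spot with Agilent Feature Extraction 10.7.3.1, and deposited these intensities as they were. A deposited table of log2 values from GeneSpring equals the log2 intensities plus 1 constant per array (tolerance 0.001). Control spots and spots marked as outliers (6 to 221 on the 8 arrays) were left out, spots of a probe were averaged on the log2 scale, and the 75th percentile of the array was subtracted. Probes lacking a value on any of the 8 arrays (412) were not tested. Duplicate spots differed by a median SD of 0.08 to 0.09, and no spot was saturated.

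Days 15 and 21 were compared with limma 3.58.1 in R 4.3.3, with culture as a block. Samples of a culture come from the same pool of fish, and their deviations from the day means correlated with r of 0.708, 0.612, 0.506 and 0.632 in cultures 4, 8, 9 and 10. The thresholds of 0.02 for p and 3 for the ratio are those of the study's methods, which name no correction for multiple tests, and here the adjusted p was held to the first. The number of arrays limits the precision. The fit was tested on simulated data. Counts were made with pandas 2.3.3 and scipy 1.17.1 in Python 3.11.15, and figures with matplotlib 3.10.9.

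The comparison and the gene lists were chosen with earlier results of these data known. The text values 16 probes with readable names, all other readable names by counts and ranges, and by identifier the 2 higher and 2 lower probes whose smallest within-culture difference was largest. The choice of the 16 was made after their values were seen. Of 7 RefSeq accessions 4 had a symbol in the RefSeq table of assembly USDA_OmykA_1.1. Alternatives were no replicate block, all 16 arrays in the fit, slide as a block, normexp (offset 50, on the median signal), quantile normalization, another percentile, other filters on dim probes, the authors' log2 values, leaving out each culture, and the methods' ANOVA limited to days 15 and 21. Slide together with culture, and each slide alone, were added after seeing the data.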

Additional observations from a re-analysis of the deposited data

Results flagged for a closer look

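In 63 groups of 4 values, taken from the probes valued here and the sizes of the steps, the highest or lowest value was set against the others by Dixon's ratio of its gap to the whole range, and 8 lay past the critical value. Chance gives about 1 in 20 of independent groups. These groups share probes and arrays, and the probes were chosen with their values known, so that rate cannot show an excess here. No cause was tested for any of the 8. At day 21 Glut2 was at -0.46 in culture 4 and between -4.25 and -3.75 in the others (ratio 0.867), elov12 was at -0.43 against -3.56 to -3.29 (0.915), and atg4b was at -3.46 against -4.63 to -4.43 (0.836). The difference of LC3B was 0.97 in culture 4 against 0.06 to 0.20 (0.846). In culture 9, PPARa was at -2.31 at day 15 against -2.799 to -2.731 (0.863), and cyp1a3 was at -0.04 at day 21 against 2.22 to 2.63 (0.844). The root mean square difference stood apart in culture 10 for day 3 to day 8, at 0.929 against 0.838 to 0.847 (0.901), and in culture 4 for day 8 to day 15, at 0.749 against 0.649 to 0.657 (0.921), and in neither case for day 15 to day 21.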

How the results depend on the processing

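Of 108 alternative values for the counts, medians and correlations, 80 differed from the reported one by no more than 1.5 times (counts) or 1 SD (medians and correlations), and many of these are counts of 0 called probes. With no replicate block 0 probes were called, 1349 had an unadjusted p below 0.05 and 0 named probes did, against 4821 and 6. With all 16 arrays in the fit these numbers were 3060 and 3 with the replicate block and 1402 and 1 without it, with slide as a block 1135 and 0, and on slide 1 and slide 2 alone 2797 and 1291 probes. Normexp gave 2787 probes and 2 named ones, 533 without overlap and 6 over 2-fold in all cultures, where 955 and 25 were reported. The last count was 39 with no filter on dim probes and 15 on probes detected on all 8 arrays. Without the filter the mean correlation of culture pairs was 0.053 and the median of the probes lower at day 8 was 0.064. Leaving out each culture gave 0 to 45 called probes, 46 to 254 over 2-fold in the remaining cultures and 2711 to 3976 without overlap, the highest each time without culture 4. Fewer cultures make both the 2-fold and the non-overlap criterion easier to meet. The ANOVA of the methods gave 9 probes before adjustment (6 higher, 3 lower) and 0 after. Under normexp atg4b was at 0.118 and Wnt4b at 0.075, and in 275 of 277 alternative values the named probes kept their direction and were not called. Much of that count was fixed in advance. A change of block or filter, or adding the arrays of days 3 and 8, leaves the mean difference of a probe as it was. Outside the fit without culture 4, no probe of any name was called in these limma fits. The cause of the differences between processings was not tested. On the 37992 probes detected on all 8 arrays no probe was called either, with a lowest adjusted p of 0.168.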
